A study of Mus musculus with 8 samples.

Results

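The lungs of mice that received an allergen while eating feed with empty capsules (Cap-F) were compared with the lungs of untreated mice (NT). The arrays were chosen by the group named in the sample titles, which gave 2 Cap-F and 2 NT arrays, 4 of 8 in all. Each array measured RNA from the lung of 1 mouse in 1 colour, and the values are log2 intensities after quantile normalization. The other 4 arrays came from allergen-exposed mice on standard feed (Ctrl-F, 2 arrays) and on feed with capsules that held a CpG oligodeoxynucleotide (ODNcap-F, 2 arrays), and they entered the estimate of the spread.

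All groups were female BALB/c mice bought at 4 weeks of age, housed for 2 weeks and then kept on their feed for 70 days. Cap-F mice ate feed with 1 mg of control particles per g, which were carbonate apatite capsules without the oligodeoxynucleotide. They were sensitized by intraperitoneal ovalbumin (OVA), 1 μg with 2 mg of alum, on days 42, 49 and 56, and breathed an aerosol of 2% OVA for 30 min a day from day 63 to day 69. Their lungs were taken 24 h after the last aerosol. NT mice ate standard feed and received no OVA, so the allergen and the capsules cannot be told apart in Cap-F against NT. The slide carried both NT arrays in its row 1 and both Cap-F arrays in its row 2, so row and group cannot be told apart either.

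In allergic airway disease, T helper cells make the cytokines IL-4, IL-5 and IL-13. IL-5 supports eosinophils, whereas IL-4 and IL-13 act through the transcription factor STAT6 on macrophages and on airway epithelium, where mucus-producing cells expand. B cells mature into plasma cells that secrete antibody, and chemokines draw further leukocytes into the tissue.

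Genes of mucous cells, chitinase-like proteins, chemokines, macrophages, plasma cells and cell division rose in the lungs of Cap-F mice, with single genes up by more than 16-fold. Genes of alveolar type 1 cells, capillary endothelium, cytochrome P450 enzymes and the circadian clock fell, mostly by 2-fold to 4-fold. Of 12 alveolar type 2 genes 1 was called higher (8.33%), and of 14 interferon-stimulated genes 1 was called lower (7.14%). Over all named genes 10.7% were called higher and 10.2% lower. Most markers of heart muscle and of fat were lower in mouse 1 of the Cap-F group than in mouse 2.

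A gene was called when its adjusted p in limma was under 0.05 and its change exceeded 2-fold. In Cap-F against NT, 5685 of 28992 genes and unnamed transcripts were called (19.6%), of which 2823 were higher (9.74%) and 2862 were lower (9.87%). Among the 16571 with a gene name, 1780 were higher (10.7%) and 1685 were lower (10.2%), and the median log2 fold change over all named genes was -0.10. The 2 directions differed in size. To count them, each value under the lowest signal found well above background on its array was raised to that signal. Changes above 4-fold then comprised 1109 increases and 237 decreases. Changes above 16-fold comprised 320 increases, 106 of them with a gene name, and 6 decreases. On that scale 529 of the 5685 calls did not exceed 2-fold. Log2 fold changes below are given ± SE from limma, with 2 mice a group. In 602 of the increases no NT array was well above background, and in 507 of the decreases no Cap-F array was. Both Cap-F mice lay above both NT mice for 5991 named genes (36.2%) and below both for 8054 (48.6%). An exact permutation test of 2 mice against 2 cannot give a two-sided p under 0.333, so the calls rest on the limma model across all genes.

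**Figure D1:**
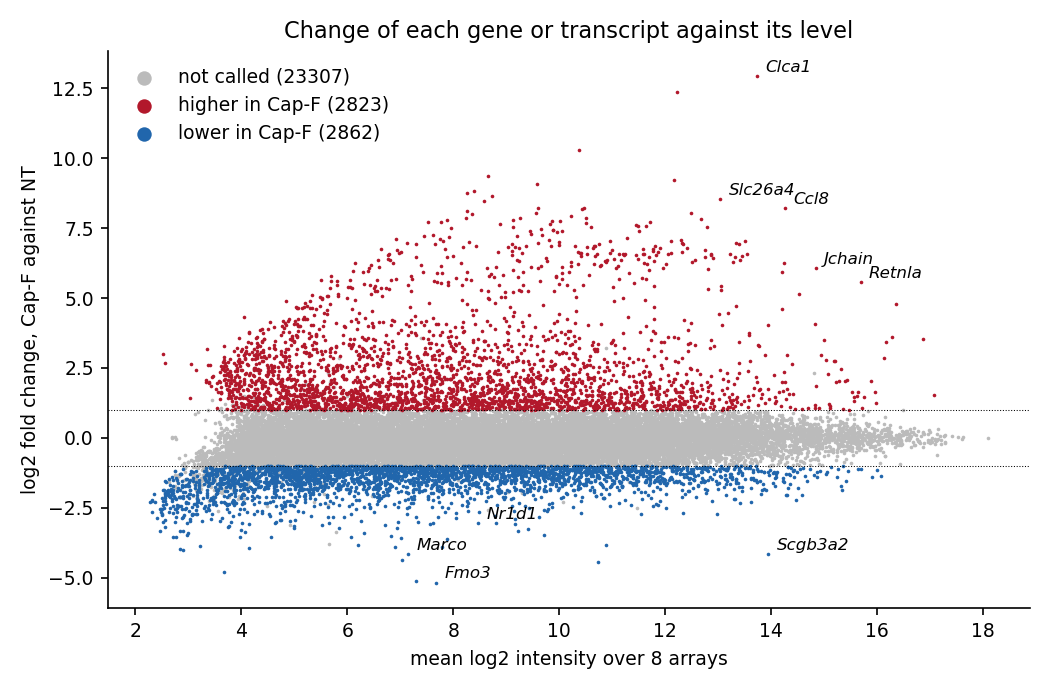
Log2 fold change of Cap-F against NT (vertical axis) against mean log2 intensity over the 8 arrays (horizontal axis), with each point a gene or unnamed transcript and the called ones coloured. Increases reach further than decreases. With values under the lowest signal well above background on their array raised to that signal, 320 lie above 16-fold against 6.

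The samples were checked against lung markers. Sftpc, the surfactant protein of alveolar type 2 cells, measured 17.60 and 17.60 in NT and 17.64 and 17.60 in Cap-F. Scgb1a1, the main secreted protein of club cells, measured 17.64 and 17.64 in NT and 17.60 and 17.64 in Cap-F. The probes of Sftpc and Scgb1a1 held ranks 3 to 6 of 37116 on all 8 arrays, and quantile normalization gives equal ranks equal values. Sftpb, a second surfactant protein, measured 15.68 and 15.69 in NT and 15.21 and 15.25 in Cap-F, and was not called at -0.45 ± 0.06 but was called at -1.09 when all its probes were averaged. Ager, a receptor of alveolar type 1 cells, measured 17.04 and 17.06 in NT and 16.16 and 16.11 in Cap-F, and was not called at a log2 fold change of -0.92 ± 0.10 (SE). Cldn5, a tight junction protein of endothelium, measured 15.33 and 15.27 in NT and 14.07 and 14.21 in Cap-F, and was called at -1.16 ± 0.13, a call that ended with scaling to the 75th percentile. The lung markers were thus abundant in all 4 lungs. In tissue RNA, fewer cells of a type and less RNA per cell cannot be told apart, here and in all gene groups that follow.

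Mucous cell genes rose steeply. Of 14 measured genes of this group 12 rose, with a median log2 fold change of 3.88 against -0.10 over all named genes. Clca1, a secreted protein of mucous cells, measured 2.65 and 5.38 in NT and 16.70 and 17.19 in Cap-F. Only 1 of the 2 NT arrays was well above background for Clca1, and both Cap-F mice lay far above both NT mice. The log2 fold change of Clca1 was 12.93 ± 0.81 (limma adjusted p = 0.000104), and it ranged from 11.56 to 14.3 with 1 array left out. Slc26a4, the anion exchanger pendrin, measured 6.66 and 6.54 in NT and 15.29 and 14.98 in Cap-F, and rose by 8.53 ± 0.14. Muc5ac, the gel-forming mucin of airway goblet cells, measured 4.63 and 4.48 in NT and 9.99 and 11.79 in Cap-F. Muc5ac was high in both Cap-F mice, and mouse 2 exceeded mouse 1 by more than 2-fold. Itln1, the lectin intelectin, showed the same order with 7.74 and 7.58 in NT and 13.68 and 15.05 in Cap-F. Spdef, a transcription factor of goblet cells, rose by 1.97 ± 0.33. The spread within Cap-F ran through the group, since 13 of the 14 genes were higher in Cap-F mouse 2, by a median of 1.24, and 8 of them by more than 2-fold. The group's mean log2 level was 7.10 and 7.63 in NT and 11.49 and 12.48 in Cap-F, so the groups did not overlap.

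All 8 chitinase-like and resistin-like genes rose, with a median of 2.91, and 6 of 8 with normexp background correction or without NT mouse 2. Retnla, a resistin-like protein that alternatively activated macrophages and epithelium secrete, measured 11.57 and 11.55 in NT and 17.12 and 17.11 in Cap-F. The mice of each group nearly coincided, and the log2 fold change was 5.56 ± 0.07 (limma adjusted p = 4.69e-06). Chia1, the acidic chitinase, measured 12.80 and 12.74 in NT and 15.71 and 15.77 in Cap-F. Chil4, a chitinase-like protein without enzyme activity, measured 5.97 and 5.83 in NT and 12.95 and 14.01 in Cap-F. Both genes were high in both Cap-F mice, and Chil4 differed by more than 2-fold between them. Retnlb, a resistin-like protein of mucus-producing epithelium, was not well above background in NT and measured 10.41 and 11.21 in Cap-F, at least 145-fold higher. Such bounds set the mean of the brighter group against the larger, on each array of the dimmer group, of the probe's own signal and the lowest signal found well above background. The call of Retn, which encodes resistin, at 1.02 ± 0.23 ended without NT mouse 2 or Cap-F mouse 2, and it ended with scaling to the 75th percentile and with normexp background correction. With all probes averaged the change of Retn was -0.78, and 7 of 8 genes of the group were higher.

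The genes of this group rose together, and Retnla is known to respond to IL-4 and IL-13 through STAT6, which binds the letters TTCNNNNGAA. Its promoter is shown from RefSeq at GRCm38.p6, chr16:48842359-48842608 on the plus strand, with these letters in capitals.
Retnla: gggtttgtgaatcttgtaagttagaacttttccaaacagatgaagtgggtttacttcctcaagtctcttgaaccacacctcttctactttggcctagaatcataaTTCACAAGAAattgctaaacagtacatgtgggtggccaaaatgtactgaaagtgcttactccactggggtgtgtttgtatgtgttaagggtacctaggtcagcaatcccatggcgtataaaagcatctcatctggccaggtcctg
The letters begin at base -145, counted from the start of the gene. TTCNNNNGAA is its own reverse complement, so a match on 1 strand is a match on both. Of 7 promoters matched in the group, 2 held it (28.6%), those of Retnla and Retnlg, against 1923 of 32851 promoters of 250 bases (5.85%). Among 12 matched CC chemokine promoters 1 held it (8.33%), that of Ccl17. A match is a description and not a site.

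Type 2 cytokines and their receptors were called in 10 of 13 measured genes, 9 higher and 1 lower, with a median of 1.87, or 1.86 with bounded genes at their bound and 0.95 with normexp background correction. Il9 and Il25 did not pass the filter on dim probes. Il4, the cytokine that drives class switching to IgE, measured 5.16 and 5.42 in NT and 9.14 and 8.99 in Cap-F, and rose by 3.77 ± 0.12. Il5, the growth factor of eosinophils, measured 2.03 and 1.77 in NT, below background, and 6.44 and 6.02 in Cap-F. It was at least 6.08-fold higher, a call that ended with normexp background correction. Il13ra2, the decoy receptor of IL-13, measured 4.10 and 3.26 in NT, with 1 of 2 arrays well above background, and 7.74 and 7.74 in Cap-F. The alarmins of the epithelium split. Il33 averaged 10.93 ± 0.10 (SD, n = 2) in NT and 12.88 ± 0.07 (SD, n = 2) in Cap-F and rose by 1.95 ± 0.14, whereas Tslp measured 8.07 and 8.37 in NT and 6.83 and 6.65 in Cap-F and fell by 1.48 ± 0.17. Neither alarmin overlapped between the groups. Of all named genes, 36.2% were above both NT mice in both Cap-F mice and 48.6% were below.

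Eosinophil genes rose in 8 of 10, with a median of 2.31. Epx, the eosinophil peroxidase, was not well above background in NT at 3.46 and 1.77 and measured 8.34 and 8.17 in Cap-F, at least 24.8-fold higher. Prg2, the major basic protein of eosinophil granules, measured 7.68 and 6.28 in NT and 10.64 and 10.62 in Cap-F. Ccr3, the eotaxin receptor, measured 6.30 and 6.63 in NT and 9.91 and 9.77 in Cap-F and rose by 3.37 ± 0.15. All 3 markers were high in both Cap-F mice, and the NT mice were the more spread for Prg2. The Ear genes of this group are near-identical copies, and their probes may not tell them apart.

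CC chemokines rose in 15 of 18 genes and fell in 1, with a median of 3.27, or 3.08 with bounded genes at their bound. Ccl8, a chemokine of monocytes and T cells, measured 8.24 and 7.95 in NT and 16.28 and 16.34 in Cap-F, and rose by 8.21 ± 0.18 (limma adjusted p = 6.03e-06). Ccl11, or eotaxin, measured 6.31 and 6.34 in NT and 12.77 and 12.64 in Cap-F. Ccl24, a second eotaxin, measured 7.79 and 7.84 in NT and 14.50 and 14.26 in Cap-F. The groups lay far apart for these 3 ligands, and the mice of a group lay close together. Ccl1, a ligand of the receptor CCR8, was at least 25.0-fold higher. The fall of Ccl28, a mucosal chemokine, by 1.26 ± 0.30 was not called without NT mouse 1, without either Cap-F mouse or with normexp background correction, which left 0 lower genes of 18.

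CXC chemokines moved both ways, with 8 of 14 higher and 3 lower and a median of 2.00, or 1.69 with bounded genes at their bound and 1.14 with normexp. The deposited values and the filter on all 8 arrays left 11 genes, 5 of them higher, with medians of 0.88 and 0.87. Cxcl5, a neutrophil chemoattractant of epithelium, measured 5.05 and 6.30 in NT and 11.38 and 11.32 in Cap-F and rose by 5.68 ± 0.46. Cxcl9, an interferon-gamma-induced ligand of CXCR3, measured 3.29 and 4.05 in NT, with 1 of 2 arrays well above background, and 9.45 and 9.01 in Cap-F. Cxcl13, the B cell chemoattractant, measured 8.50 and 8.22 in NT and 11.72 and 11.77 in Cap-F. These 3 ligands were high in both Cap-F mice. Cxcl14 fell by 1.53 ± 0.15, and Ppbp, a platelet chemokine, fell by 1.73 ± 0.22. Cxcl12, a ligand of stromal cells and endothelium, measured 14.57 and 14.32 in NT and 13.32 and 13.44 in Cap-F. Its call at -1.06 ended without NT mouse 1 and with scaling to the 75th percentile, and its sign changed to 0.35 when all its probes were averaged.

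**Figure D2:**
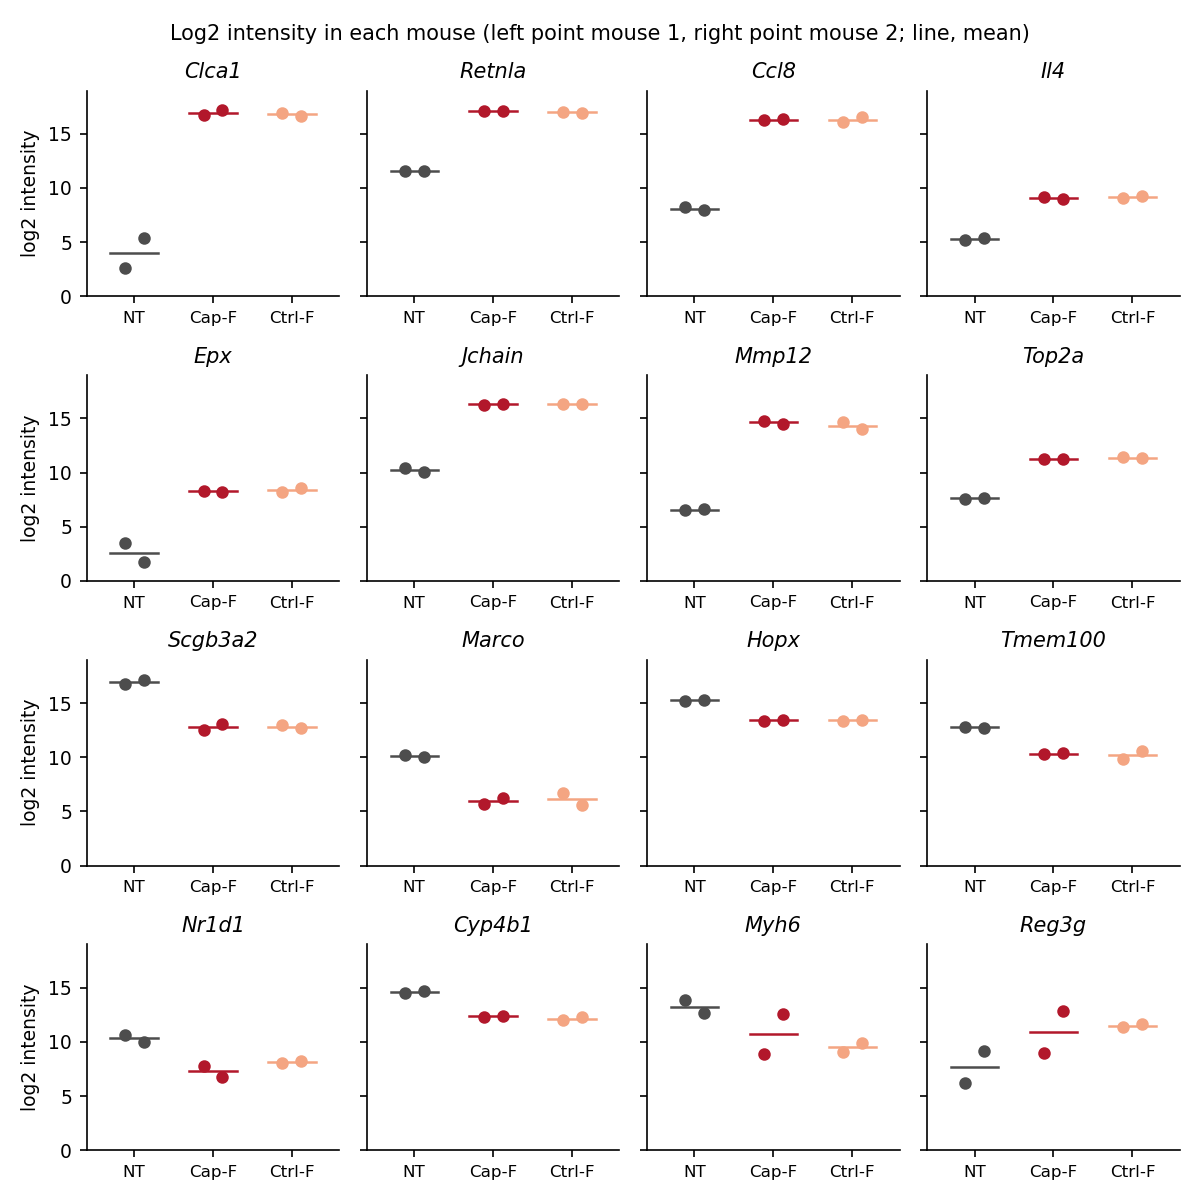
Log2 intensity (vertical axis) of 16 genes in NT, Cap-F and Ctrl-F, with each point 1 mouse and each line the mean of 2 mice. Clca1 reaches 16.70 and 17.19 in the Cap-F mice against 2.65 and 5.38 in the NT mice, whereas Myh6 lies at 8.87 and 12.60 in the Cap-F mice.

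Macrophage genes rose in 13 of 18 and fell in 1, with a median of 2.44. Mmp12, the macrophage elastase, measured 6.51 and 6.64 in NT and 14.77 and 14.49 in Cap-F, and rose by 8.06 ± 0.24. Trem2, a lipid receptor of macrophages, measured 9.18 and 9.16 in NT and 13.50 and 13.26 in Cap-F. Marco, a scavenger receptor of macrophages, went the other way, with 10.20 and 10.04 in NT and 5.71 and 6.23 in Cap-F, and fell by 4.15 ± 0.38 (limma adjusted p = 0.000364). None of these 3 genes overlapped between groups, nor did 23812 of all 28992 genes and unnamed transcripts. Spp1, or osteopontin, rose by 4.61 ± 0.17, and Dcstamp, a fusion protein of macrophages and osteoclasts, rose by 7.21 ± 0.27 with 1 of 2 NT arrays well above background.

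Genes of arginine metabolism rose in 5 of 11 (45.5%, against 10.7% of all named genes) and fell in 1 (9.09%, against 10.2%). Their median was 0.97. Nos2, the inducible nitric oxide synthase, measured 8.52 and 8.36 in NT and 12.10 and 11.51 in Cap-F, and Slc7a2, an arginine carrier, rose by 2.66 ± 0.17. Nos3, the endothelial nitric oxide synthase, measured 11.89 and 11.61 in NT and 10.57 and 10.59 in Cap-F and fell by 1.17 ± 0.18. The inducible and the endothelial synthase thus moved in opposite directions in both Cap-F mice. Eicosanoid genes rose in 7 of 15 (46.7%, against 10.7% of all named genes) and fell in 2 (13.3%, against 10.2%). Their median was 0.74. Alox15, a lipoxygenase of eosinophils and macrophages, measured 4.86 and 5.34 in NT and 10.01 and 10.09 in Cap-F. Pla2g5, a secreted phospholipase, was at least 21.1-fold higher, and Alox12, the platelet-type lipoxygenase, fell by 1.88 ± 0.17. Complement genes rose in 6 of 16, with a median of 0.46. The 3 chains of C1q, the first complement component, rose by 2.86 (C1qa), 2.84 (C1qb) and 2.84 (C1qc), and C3ar1, an anaphylatoxin receptor, rose by 3.70 ± 0.27.

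B and plasma cell genes rose in 12 of 15, with a median of 2.45. Jchain, the joining chain of IgA and IgM, measured 10.43 and 10.09 in NT and 16.28 and 16.37 in Cap-F, and rose by 6.07 ± 0.13 (limma adjusted p = 5.78e-06). Mzb1, a chaperone of antibody assembly, measured 8.70 and 8.27 in NT and 14.65 and 14.87 in Cap-F. Both genes were high in both Cap-F mice, and the groups lay far apart. NT mouse 2 was lower than NT mouse 1 in all 15 genes, by a median of -0.38. Genes of the unfolded protein response and secretion rose in 6 of 16, with a median of 0.81. Sdf2l1, a chaperone of the endoplasmic reticulum, measured 9.52 and 9.60 in NT and 12.41 and 12.52 in Cap-F.

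T helper and regulatory T cell genes rose in 11 of 16, with a median of 1.36, and in 5 of 16 with normexp, where the median was 0.73. Il21, a cytokine of follicular helper T cells, was below background in NT at 1.88 and 1.92 and measured 7.04 and 7.02 in Cap-F, at least 10.6-fold higher. Pdcd1, the checkpoint receptor PD-1, measured 3.99 and 5.37 in NT and 9.52 and 9.39 in Cap-F. Il10, a regulatory cytokine, was at least 4.87-fold higher, a call that ended with normexp background correction. Cytotoxic lymphocyte genes had a median of -0.34, with 2 of 12 higher (16.7%, against 10.7% of all named genes) and 1 lower (8.33%, against 10.2%). Their median was -0.17 without NT mouse 1, -0.20 when Cap-F mouse 2 was left out, and -0.22 with normexp, where 0 genes were called. Ifng measured 6.47 and 6.18 in NT and 7.84 and 7.59 in Cap-F and rose by 1.39 ± 0.13, also a call that ended with normexp background correction. Ncr1, a receptor of natural killer cells, fell by 1.09 ± 0.16, and without Cap-F mouse 2 or with normexp it was not called.

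Dendritic cell genes rose in 6 of 12, with a median of 1.11, or 0.89 with bounded genes at their bound. Itgax, the integrin CD11c, measured 11.42 and 11.30 in NT and 14.77 and 14.55 in Cap-F, and Cd83, a maturation marker, rose by 3.11 ± 0.17. Genes of MHC class II presentation rose in 9 of 11, with a median of 1.56. In each of the 11 both Cap-F mice lay above both NT mice (36.2% of all named genes did). H2-Eb2 measured 4.20 and 3.91 in NT and 8.97 and 8.79 in Cap-F. H2-Oa and H2-Ob, the chains of the DM modulator DO, rose by 2.64 ± 0.25 and 2.43 ± 0.20.

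Mast cell and basophil genes rose in 4 of 12 (33.3%, against 10.7% of all named genes) and fell in 1 (8.33%, against 10.2%), with a median of 0.48. Mcpt1, a protease of mucosal mast cells, was below background in NT at 1.74 and 2.44 and measured 6.95 and 7.76 in Cap-F, at least 13.2-fold higher. Mcpt8, a basophil protease, measured 7.83 and 5.19 in NT and 6.03 and 6.27 in Cap-F, so that the Cap-F mice lay between the NT mice. Gata2, a transcription factor of mast cells and endothelium, fell by 1.74 ± 0.23. Without NT mouse 1 or NT mouse 2 the lower genes numbered 2, with medians of 0.84 and 0.61, and normexp gave 2 higher genes and a median of 0.15. Neutrophil genes had a median of -0.13, with 2 of 12 higher and 2 lower (16.7% each way, against 10.7% and 10.2% of all named genes). Ltf, or lactoferrin, measured 9.62 and 10.11 in NT and 12.21 and 12.76 in Cap-F, and Lcn2, or lipocalin 2, measured 12.46 and 11.95 in NT and 14.46 and 14.45 in Cap-F. The granule genes Camp and Ngp were lower, with Camp at 10.54 and 8.70 in NT and 7.72 and 8.01 in Cap-F. The lower neutrophil genes numbered 1 without NT mouse 1 and without any 1 Ctrl-F or ODNcap-F mouse, and 0 without Cap-F mouse 1 or Cap-F mouse 2. With no filter and with only the 2 groups compared neither Camp nor Ngp was called. The median of the neutrophil genes was 0.04 without NT mouse 1, stood at -0.51 when NT mouse 2 was left out, and was also positive with the deposited values and over probes well above background on all 8 arrays.

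Cell cycle genes rose in 19 of 20, with a median of 2.98. Top2a, the topoisomerase of dividing cells, measured 7.60 and 7.70 in NT and 11.24 and 11.21 in Cap-F, and rose by 3.58 ± 0.07 (limma adjusted p = 5.50e-06). Cdk1, the kinase that drives mitosis, measured 4.61 and 5.21 in NT and 8.92 and 8.85 in Cap-F. Birc5, or survivin, measured 9.47 and 9.32 in NT and 13.00 and 12.97 in Cap-F. The Cap-F mice nearly coincided for these 3 genes and lay well above both NT mice. The gene not called was Mcm4, a subunit of the replicative helicase, at 0.86, which was named after its value was seen.

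Promoters of genes of mitosis are known for CCAAT letters, bound by the factor NF-Y, and for TTTGAA, part of the cell cycle homology region. The 2 promoters shown, from RefSeq at GRCm38.p6, are of Cdk1, chr10:69352913-69353162 on the minus strand, and of Top2a, chr11:99024190-99024439 on the minus strand, with CCAAT or its reverse complement in capitals.
Cdk1: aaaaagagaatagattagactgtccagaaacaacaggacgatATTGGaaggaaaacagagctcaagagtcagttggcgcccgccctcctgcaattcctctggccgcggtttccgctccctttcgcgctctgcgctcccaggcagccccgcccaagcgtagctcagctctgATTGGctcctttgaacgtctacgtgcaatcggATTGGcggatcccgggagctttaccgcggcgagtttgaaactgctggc
Top2a: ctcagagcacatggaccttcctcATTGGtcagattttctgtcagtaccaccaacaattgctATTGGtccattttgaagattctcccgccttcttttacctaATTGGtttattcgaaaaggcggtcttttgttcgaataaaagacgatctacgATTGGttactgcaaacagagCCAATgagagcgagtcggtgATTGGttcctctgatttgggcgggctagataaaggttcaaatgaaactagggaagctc
The promoter of Cdk1 held 3 matches and that of Top2a held 6. Of 16 matched cell cycle promoters, 14 held CCAAT on either strand (87.5%) against 11120 of 32851 promoters (33.8%), and 5 held TTTGAA (31.2%) against 5252 (16%). Matches of CCAAT and TTTGAA overlapped in 40 promoters of the 32851, and those of TTCNNNNGAA overlapped CCAAT in 28 and TTTGAA in 136.

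Interferon-stimulated genes had a median of -0.09, near the median of all named genes. Of 14, 1 was called, in the lower direction (7.14%, against 10.2% of all named genes). Without NT mouse 1 the median was positive at 0.01, whereas it was -0.20 without NT mouse 2 and -0.16 when Cap-F mouse 2 was left out. Ifit2 measured 7.92 and 8.13 in NT and 6.88 and 7.03 in Cap-F, and its call at -1.07 ended without NT mouse 2, without Cap-F mouse 1 and with normexp background correction. Without Cap-F mouse 2 the higher genes numbered 1. Bst2, an antiviral membrane protein, measured 11.88 and 11.71 in NT and 12.07 and 11.97 in Cap-F and was not called. Of 12 genes of Toll-like receptors and CpG sensing 2 rose (16.7%, against 10.7% of all named genes) and 1 fell (8.33%, against 10.2%). The median of this Toll-like receptor list, which also holds Unc93b1 and Irf7, was 0.36. Tlr1 rose by 1.83 ± 0.15, Unc93b1, which carries nucleic acid-sensing receptors to endosomes, rose by 1.49 ± 0.12, and Tlr5, the flagellin receptor, fell by 1.11 ± 0.10. Without NT mouse 1 the Toll-like receptor counts were 3 higher and 0 lower, and the call of Tlr5 also ended with normexp.

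Among 8 genes of the IL-22 and Reg3g axis 1 rose and 1 fell (12.5% each way, against 10.7% and 10.2% of all named genes), with a median of 0.37. Reg3b and Il22 were below the filter. Il22ra2, the soluble binding protein of IL-22, measured 7.01 and 7.36 in NT and 2.89 and 3.63 in Cap-F, where it was not above background, and was at least 8.78-fold lower. Il17a was at least 2.81-fold higher, a call that ended when any 1 NT or Cap-F mouse was left out, with normexp and with no filter. The higher genes of this axis numbered 0 without NT mouse 1, NT mouse 2 or Cap-F mouse 2. Reg3g, an antibacterial lectin of epithelium, measured 6.20 and 9.12 in NT and 8.94 and 12.81 in Cap-F and was not called (3.22 ± 1.52, limma adjusted p = 0.120). It was called with a replicate block (limma adjusted p = 0.0278), with the local-pooled-error test and without Cap-F mouse 1, where the change was 5.16. Its groups overlapped, and mouse 2 exceeded mouse 1 in each group. The mouse numbers come from the sample titles and mark no known pairing. Across probes, mouse 2 minus mouse 1 correlated at 0.00847 between Cap-F and NT. The call with a replicate block therefore rests on an arbitrary order of the mice.

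Alveolar type 1 cell genes fell in 8 of 10, with a median of -1.54. In each of the 10 both Cap-F mice lay below both NT mice (48.6% of all named genes did). Hopx, a transcriptional cofactor of these cells, measured 15.20 and 15.33 in NT and 13.37 and 13.47 in Cap-F, and fell by 1.84 ± 0.09 (limma adjusted p = 4.20e-05). Aqp5, a water channel, measured 14.28 and 14.29 in NT and 12.55 and 12.52 in Cap-F. Vegfa, a growth factor for capillaries, measured 14.33 and 14.46 in NT and 12.54 and 12.60 in Cap-F. In each of these genes the mice of a group differed by far less than the groups did. Alveolar type 2 cell genes had a median of -0.40, with 1 of 12 higher (8.33%, against 10.7% of all named genes). When all probes were averaged 1 was lower. The higher gene was Il33, whereas Sftpd, a surfactant collectin, measured 16.42 and 16.37 in NT and 16.77 and 16.74 in Cap-F and was not called.

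Capillary endothelium genes fell in 13 of 16, with a median of -1.32, and all 16 were below both NT mice in both Cap-F mice (48.6% of all named genes were). Tmem100, a membrane protein of endothelium, measured 12.75 and 12.74 in NT and 10.28 and 10.37 in Cap-F, and fell by 2.42 ± 0.25. Ednrb, an endothelin receptor, measured 10.01 and 10.15 in NT and 7.82 and 8.10 in Cap-F. Bmpr2, a receptor of bone morphogenetic proteins, measured 14.79 and 14.80 in NT and 13.00 and 13.06 in Cap-F. These genes were low in both Cap-F mice alike. Red blood cell genes fell in 3 of 5, with a median of -1.38. Alas2, the first enzyme of haem synthesis in red cells, measured 12.82 and 12.78 in NT and 10.34 and 10.84 in Cap-F, and Hbb-bt, a beta globin, fell by 1.38 ± 0.11. The summed linear intensity of the red blood cell genes, with the brightest probe that of Hba-a1, was 299360 and 309990 in NT and 193800 and 211170 in Cap-F. Probe intensity does not rank the levels of different genes, here and in the sums below, and the part of red blood cell RNA in other results was not tested.

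Club cell genes fell in 5 of 10, with a median of -0.90. Scgb3a2, a secretoglobin of the airways, measured 16.79 and 17.10 in NT and 12.54 and 13.04 in Cap-F, and fell by 4.15 ± 0.23 (limma adjusted p = 7.45e-05). Cyp2f2, a P450 enzyme of club cells, measured 16.68 and 16.73 in NT and 14.98 and 15.36 in Cap-F, and Aldh1a1, a retinal dehydrogenase, fell by 1.40 ± 0.18. Scgb3a1, another secretoglobin, measured 11.80 and 14.54 in NT and 14.97 and 16.01 in Cap-F, with NT mouse 1 far below the rest, and was not called (2.32 ± 0.87, limma adjusted p = 0.0646). It was called with a replicate block, an intensity trend, scaling to the 75th percentile, normexp, the deposited values, the filter on all 8 arrays, the local-pooled-error test and the unadjusted p, and without NT mouse 2, where the change was 3.69. In Cap-F, mouse 2 exceeded mouse 1 in all 10 club cell genes, with a median difference of 0.48 against -0.004 over all named genes. Without NT mouse 2 or Cap-F mouse 1, and with the 8 settings just named, the higher genes numbered 1, and the call of Cyp2a5 ended without either NT mouse, either Ctrl-F mouse or Cap-F mouse 1 and with no filter.

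Of 10 ciliated cell genes 1 was called lower (10%, against 10.2% of all named genes), with a median of -0.45. Tppp3, a tubulin-binding protein, measured 15.68 and 15.65 in NT and 13.65 and 14.14 in Cap-F and fell by 1.77 ± 0.18. All 10 were higher in Cap-F mouse 2, by a median of 0.69, and 2 were called lower without Cap-F mouse 2. Leaving out Cap-F mouse 1 gave these genes a median of -0.09, and leaving out mouse 2 gave -0.82. Their summed linear intensity was 65748 and 65238 in NT and 20470 and 29923 in Cap-F. The brightest probe was that of Tppp3, the 1 gene called, so the sum weights that gene most. It is no measure of the 9 genes not called. Airway basal and squamous genes rose in 2 of 5 (40%, against 10.7% of all named genes), with a median of 0.62. The lower genes numbered 1 without either ODNcap-F mouse, with scaling to the 75th percentile, a replicate block, an intensity trend, only the 2 groups compared, the local-pooled-error test and the unadjusted p. Normexp gave 1 higher gene and a median of 0.34, no filter a median of 0.23, and averaged probes 3 higher genes. Over the 4 genes left, the deposited values gave 1.39 and the filter on all 8 arrays 1.51. Krt4, Krt5 and Krt13 did not pass the filter. Ngfr, a receptor of basal cells, measured 5.13 and 5.29 in NT and 7.94 and 7.85 in Cap-F.

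**Figure D3:**
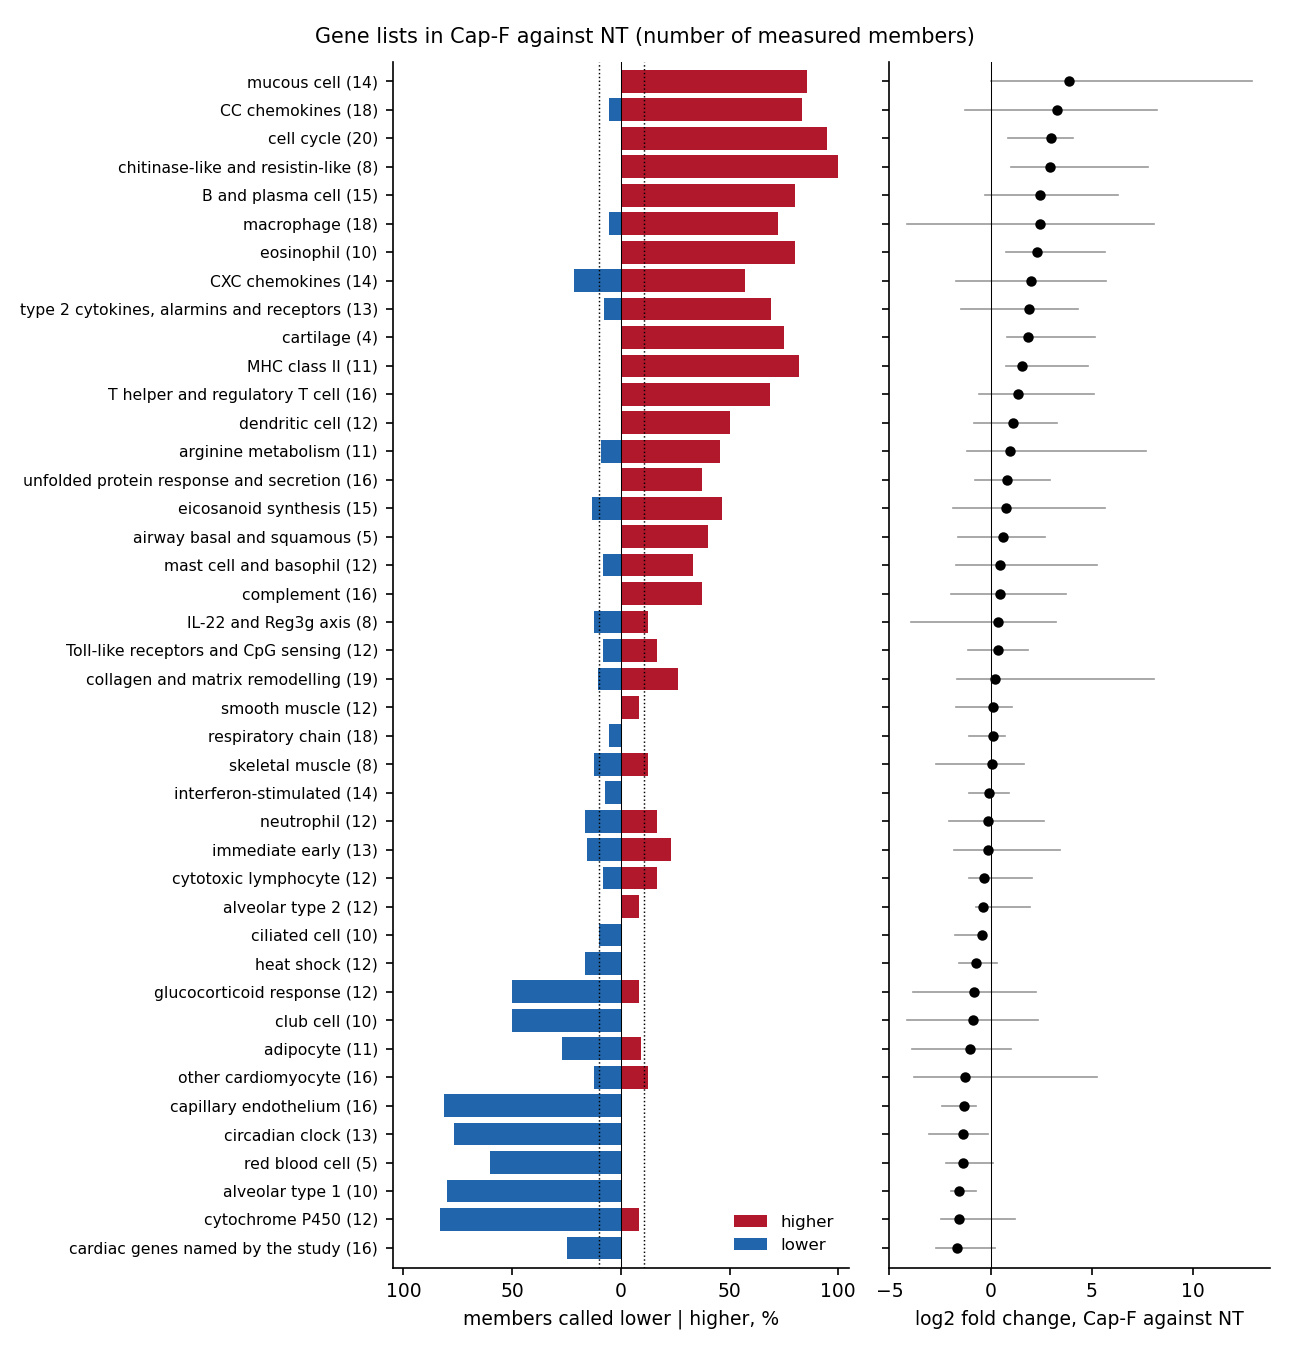
Left, the percentage of measured genes of each group called higher (red) or lower (blue) in Cap-F than in NT, with dotted lines at the 10.7% and 10.2% of all named genes. Right, the median log2 fold change (point) and the range (line) of each group, from a median of 3.88 for mucous cell genes to -1.68 for the cardiac genes named by the study.

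Cytochrome P450 genes fell in 10 of 12 and rose in 1, with a median of -1.58. Cyp4b1, an enzyme abundant in lung, measured 14.47 and 14.71 in NT and 12.28 and 12.42 in Cap-F, and fell by 2.24 ± 0.13. Cyp2d22 measured 8.70 and 8.82 in NT and 6.27 and 6.35 in Cap-F, and Cyp1b1 rose by 1.22 ± 0.16, a call that ended with normexp. Without Cap-F mouse 1 the lower genes numbered 6. Cyp2e1 was apart within Cap-F, at 5.31 and 7.44, and its call ended when any 1 of the NT, Ctrl-F or ODNcap-F mice or Cap-F mouse 1 was left out, with no filter, with only the 2 groups compared and with all probes averaged. Among the steepest single decreases, Pon1, an esterase, measured 11.12 and 11.29 in NT and 6.11 and 6.11 in Cap-F and fell by 5.10 ± 0.10. Fabp1, a fatty acid-binding protein, measured 10.55 and 10.09 in NT and 6.12 and 5.82 in Cap-F.

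Circadian clock genes fell in 10 of 13, with a median of -1.36. Nr1d1, the repressor REV-ERB alpha, measured 10.63 and 10.01 in NT and 7.80 and 6.77 in Cap-F, and fell by 3.03 ± 0.36. Cry2, a repressor of the core loop, measured 13.36 and 13.25 in NT and 11.61 and 11.67 in Cap-F. Dbp, an output factor of the clock, measured 14.27 and 13.80 in NT and 12.85 and 12.07 in Cap-F. The 2 Cap-F mice were more than 2-fold apart for Nr1d1 and close for Cry2. Both genes were below both NT mice in both Cap-F mice (48.6% of all named genes were).

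The clock factors CLOCK and BMAL1 are known to bind CACGTG, so the promoter of Ciart, a clock-controlled repressor that fell by 1.79 ± 0.22, is shown from RefSeq at GRCm38.p6, chr3:95882229-95882478 on the minus strand, with CACGTG in capitals.
Ciart: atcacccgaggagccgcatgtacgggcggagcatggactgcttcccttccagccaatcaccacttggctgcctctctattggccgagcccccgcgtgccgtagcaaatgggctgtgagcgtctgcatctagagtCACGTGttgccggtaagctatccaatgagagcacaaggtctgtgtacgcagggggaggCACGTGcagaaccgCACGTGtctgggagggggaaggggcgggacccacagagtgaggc
It held 3 matches, which begin at bases -116, -58 and -44. CACGTG is its own reverse complement. Of 13 matched clock promoters 4 held it (30.8%), those of Per1, Cry1, Tef and Ciart, against 1978 of 32851 promoters (6.02%), and its matches overlapped those of TTCNNNNGAA in 3 promoters and those of the other letters in 0.

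Glucocorticoid response genes fell in 6 of 12 (50%, against 10.2% of all named genes) and rose in 1 (8.33%, against 10.7%). Their median was -0.81. Zbtb16, a hormone-induced transcription factor, measured 13.15 and 12.60 in NT and 8.74 and 9.33 in Cap-F, and fell by 3.84 ± 0.50. Tsc22d3, the mediator GILZ, measured 14.66 and 14.30 in NT and 12.91 and 13.14 in Cap-F. Without Cap-F mouse 2 the higher genes numbered 2. Heat shock genes fell in 2 of 12 (16.7%, against 10.2% of all named genes), with a median of -0.73. They numbered 1 with scaling to the 75th percentile or no filter, and 3 with normexp or the filter on all 8 arrays. At unadjusted p with the fold 4 were lower, and with no limit on the fold 5 were. Hspb8 fell by 1.16 ± 0.08. Dnajb1 was the other called gene, a call that ended when any 1 NT or Cap-F mouse was left out, with scaling to the 75th percentile, with normexp, with the deposited values and with no filter. The lower heat shock genes numbered 1 without NT mouse 2, Cap-F mouse 1 or Cap-F mouse 2, and 4 without either ODNcap-F mouse, with an intensity trend, with only the 2 groups compared and with the local-pooled-error test. Immediate early genes rose in 3 of 13 (23.1%, against 10.7% of all named genes) and fell in 2 (15.4%, against 10.2%). Their median was -0.13, and it was -0.36 without NT mouse 1 and -0.20 when Cap-F mouse 1 was left out. Egr2 measured 9.19 and 9.42 in NT and 12.91 and 12.54 in Cap-F, and Atf3, a stress-induced factor, rose by 3.21 ± 0.20. Dusp1, a phosphatase of MAP kinases, fell by 1.82 ± 0.20, whereas the fall of Ier3 was not called without NT mouse 2, which left 1 lower gene.

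Collagen and matrix genes rose in 5 of 19 (26.3%, against 10.7% of all named genes) and fell in 2 (10.5%, against 10.2%), with a median of 0.23. Timp1, an inhibitor of metalloproteinases, measured 9.45 and 9.24 in NT and 13.88 and 13.70 in Cap-F, and Col3a1, a fibrillar collagen, rose by 1.49 ± 0.12. Timp3 measured 15.65 and 15.68 in NT and 14.03 and 14.01 in Cap-F and fell by 1.65 ± 0.11. The call of Timp2, the other gene called lower, ended without NT mouse 1 or Cap-F mouse 2, with scaling to the 75th percentile, with the deposited values and with all probes averaged, and the lower genes numbered 1 without either of these mice. Cartilage genes rose in 3 of 4 measured, with a median of 1.86, while Acan, Cnmd, Matn1, Matn3 and Col9a1 were below the filter. Col2a1 measured 7.83 and 8.14 in NT and 9.33 and 9.75 in Cap-F, and Chad was apart within Cap-F at 8.61 and 10.01.

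Of 12 smooth muscle genes 1 was called higher (8.33%, against 10.7% of all named genes), with a median of 0.13. Acta2, smooth muscle actin, measured 13.22 and 13.40 in NT and 13.85 and 14.11 in Cap-F and was not called. The call of Myocd, a coactivator of smooth muscle genes, at 1.07 ± 0.21 ended without NT mouse 2, which left 0 higher genes, and with normexp. Without Cap-F mouse 2, 1 smooth muscle gene was lower and the median was 0.02, against 0.24 without Cap-F mouse 1. Respiratory chain genes had a median of 0.10 with 1 of 18 lower (5.56%, against 10.2% of all named genes). That gene was Cox7a1, a muscle isoform, which measured 11.13 and 10.86 in NT and 9.80 and 10.09 in Cap-F and was not called without NT mouse 1 or Cap-F mouse 1, which left 0. Of 8 skeletal muscle genes measured 1 rose and 1 fell (12.5% each way, against 10.7% and 10.2% of all named genes), with a median of 0.07 that was negative with normexp, with no filter and without NT mouse 2. It was 0.22 without NT mouse 1, 0.13 when Cap-F mouse 1 was left out and 0.02 when Cap-F mouse 2 was. Pvalb, a calcium buffer of fast muscle, rose by 1.66 ± 0.13, and Myh2, a fast myosin, was at least 1.26-fold lower, a call that ended with normexp. Myh1, Myh4, Actn3 and Myoz1 were below the filter, and the summed linear intensity of the rest, brightest for Tnni2, was 1022 and 880 in NT and 1294 and 1366 in Cap-F.

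The 2 mice of each group were compared over 37116 probes. The values of the NT mice correlated at r = 0.996 and those of the Cap-F mice at r = 0.994, across probes, which are not independent replicates. Probes more than 2-fold apart numbered 408 in NT (1.1%) and 713 in Cap-F (1.92%), beside 627 in Ctrl-F (1.69%) and 692 in ODNcap-F (1.86%). The median SD of a probe was 0.0755 in NT and 0.0754 in Cap-F, and the 95th percentile was 0.378 and 0.478, so the extra spread of Cap-F lay in a minority of probes. The difference was directed in Cap-F, where mouse 2 was the higher in 481 of the 713 probes, against 189 of 408 in NT. Over all named genes the median of mouse 2 minus mouse 1 was -0.004 in Cap-F and 0.0105 in NT. Among named genes 280 were more than 2-fold apart in Cap-F and 168 in NT, with 40 in both. Of the 280, 112 were well above background on both Cap-F arrays. Of the 3465 named genes called in Cap-F against NT, 3293 were not more than 2-fold apart in either group. Of 128 named genes whose means differed by more than 2-fold without a call, 97 were more than 2-fold apart within a group.

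**Figure D4:**
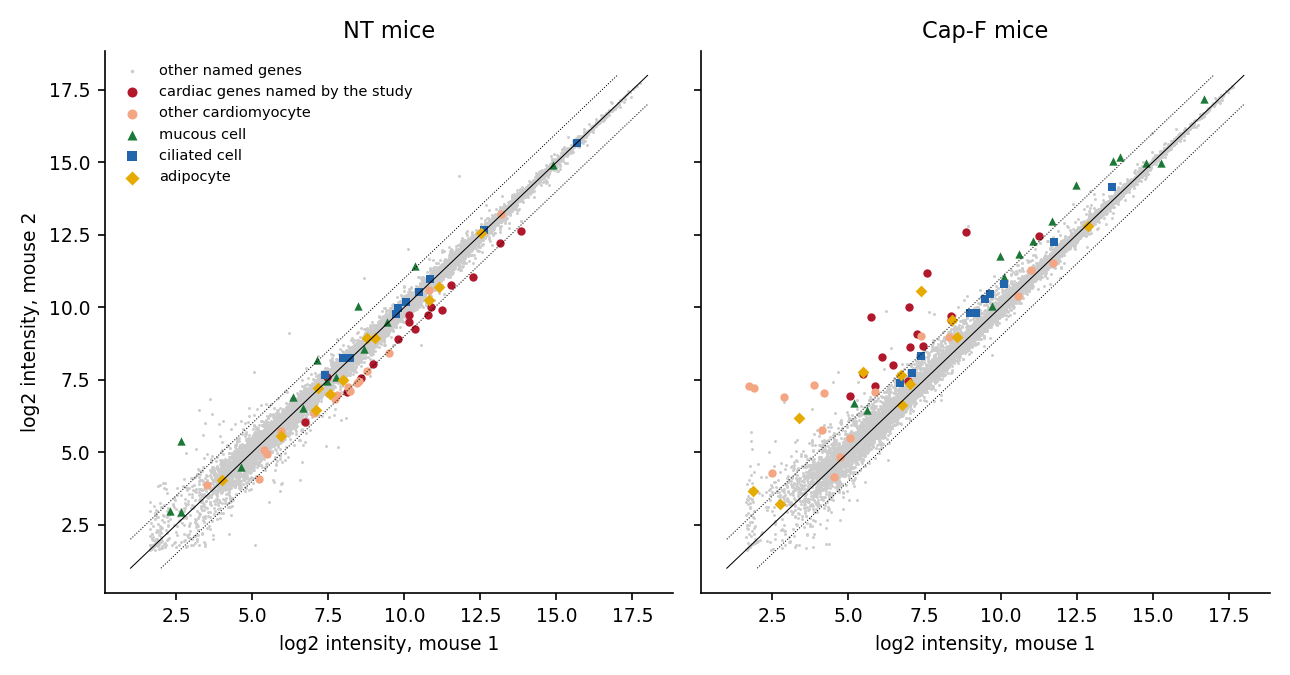
Log2 intensity in mouse 2 (vertical axis) against mouse 1 (horizontal axis) for named genes, in NT (left) and Cap-F (right), with 5 gene groups coloured and dotted lines at 2-fold. In Cap-F 216 of the 280 genes beyond the dotted lines are higher in mouse 2, and in NT 78 of 168.

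Several heart muscle genes were among the 10 named genes farthest apart between the Cap-F mice. Mb, or myoglobin, measured 8.77 and 7.82 in NT and 1.74 and 7.28 in Cap-F, and it was not above background in Cap-F mouse 1, so its distance there is not a bound. Myh6, the cardiac alpha myosin heavy chain, measured 13.83 and 12.62 in NT and 8.87 and 12.60 in Cap-F, and was not called (-2.49 ± 1.19, limma adjusted p = 0.122). Myl7, the atrial myosin light chain, was not among the 10 and measured 12.27 and 11.06 in NT and 7.58 and 11.18 in Cap-F. In these genes Cap-F mouse 1 was low, while Cap-F mouse 2 lay near NT mouse 2. Without Cap-F mouse 1 the change of Myh6 was -0.63, and without Cap-F mouse 2 it was called at -4.35.

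The 16 cardiac genes named by the study were chosen on these samples, so their direction is not independent evidence. Of the 16, 4 fell, with a median of -1.68, and all 16 were higher in Cap-F mouse 2, by a median of 1.72, with 15 more than 2-fold apart. In NT, mouse 2 was higher in 1 of the 16, by a median of -0.94, with 7 more than 2-fold apart. Their mean level was 10.25 and 9.38 in NT and 7.18 and 9.21 in Cap-F, and their summed linear intensity, brightest for Myl4, was 43497 and 21331 in NT and 4859 and 20207 in Cap-F. Without Cap-F mouse 1 or NT mouse 1 the lower genes numbered 2, with medians of -0.54 and -1.25, and without Cap-F mouse 2 they numbered 13, with a median of -2.56. The local-pooled-error test called 12 of the 16 lower. Cox8b, a heart isoform of the respiratory chain, measured 10.14 and 9.74 in NT and 6.48 and 8.02 in Cap-F and fell by 2.69 ± 0.50. Fabp3, the heart fatty acid-binding protein, fell by 2.18 ± 0.45. The calls of Myh7b and Tcap ended without NT mouse 1 or Cap-F mouse 1, and that of Tcap also with no filter and with only the 2 groups compared.

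Of 20 other cardiomyocyte genes 16 were measured, and Myl2, Nkx2-5, Tbx20 and Bmp10 were below the filter. Of these 16, 2 rose and 2 fell (12.5% each way, against 10.7% and 10.2% of all named genes), with a median of -1.25. Normexp gave 1 higher, 3 lower and a median of -0.70, and over the 7 genes left the deposited values and the filter on all 8 arrays each gave -0.57. Of the 16, 13 were higher in Cap-F mouse 2, by a median of 1.42. Their mean level was 7.73 and 7.07 in NT and 5.65 and 7.41 in Cap-F, and their summed linear intensity, brightest for Myh7, was 14281 and 12732 in NT and 7676 and 8846 in Cap-F. Of the 16, 9 were more than 2-fold apart between the Cap-F mice. Myh7, the cardiac beta myosin heavy chain, was not, with 13.18 and 13.21 in NT and 11.73 and 11.54 in Cap-F. It fell by 1.56 ± 0.14. Corin, the protease that activates natriuretic peptide, measured 5.50 and 4.93 in NT and 10.57 and 10.40 in Cap-F and rose by 5.27 ± 0.20. With Cap-F mouse 2 left out 8 of these genes were lower, and the median over all 16 was -1.70. Leaving out Cap-F mouse 1 gave 1 lower gene and a median of -0.36, and leaving out any 1 NT, Ctrl-F or ODNcap-F mouse also gave 1 lower gene, with a median of -0.76 without NT mouse 1. The lower genes numbered 8 with the local-pooled-error test and 4 with an intensity trend. The call of Nppb, a natriuretic peptide measured well above background on 1 of 2 NT arrays, at 1.09 ± 0.15 ended without NT mouse 1, with scaling to the 75th percentile, with normexp and with the local-pooled-error test.

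Adipocyte genes fell in 3 of 11 measured (27.3%, against 10.2% of all named genes) and rose in 1 (9.09%, against 10.7%). Their median was -1.02, or -0.60 with bounded genes at their bound. Ucp1 and Acvr1c were below the filter. The higher gene was Retn, also counted above with the resistin-like genes. With scaling to the 75th percentile, normexp or all probes averaged 0 adipocyte genes were higher. The call of Plin1, a lower gene, ended in 7 settings, normexp and no filter among them. Adipoq, or adiponectin, measured 7.09 and 6.46 in NT and 3.39 and 6.17 in Cap-F and was not called. Cidec, a protein of lipid droplets, measured 10.80 and 10.25 in NT and 5.48 and 7.78 in Cap-F, and fell by 3.89 ± 0.74. Cap-F mouse 1 was the low one for both. In the group 9 of 11 were higher in Cap-F mouse 2, by a median of 0.96, and the mean level was 8.36 and 8.11 in NT and 6.47 and 7.67 in Cap-F. The summed linear intensity, brightest for Lpl, was 11663 and 10517 in NT and 8862 and 10754 in Cap-F. Without Cap-F mouse 1 the counts were 1 higher and 2 lower, with a median of -0.61, and normexp gave a median of -0.37. Without NT mouse 2 the counts were 0 higher and 2 lower, and without Cap-F mouse 2 they were 0 higher and 4 lower. The part of heart muscle, fat, ciliated and red blood cell markers in the other results was not tested.

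**Figure D5:**
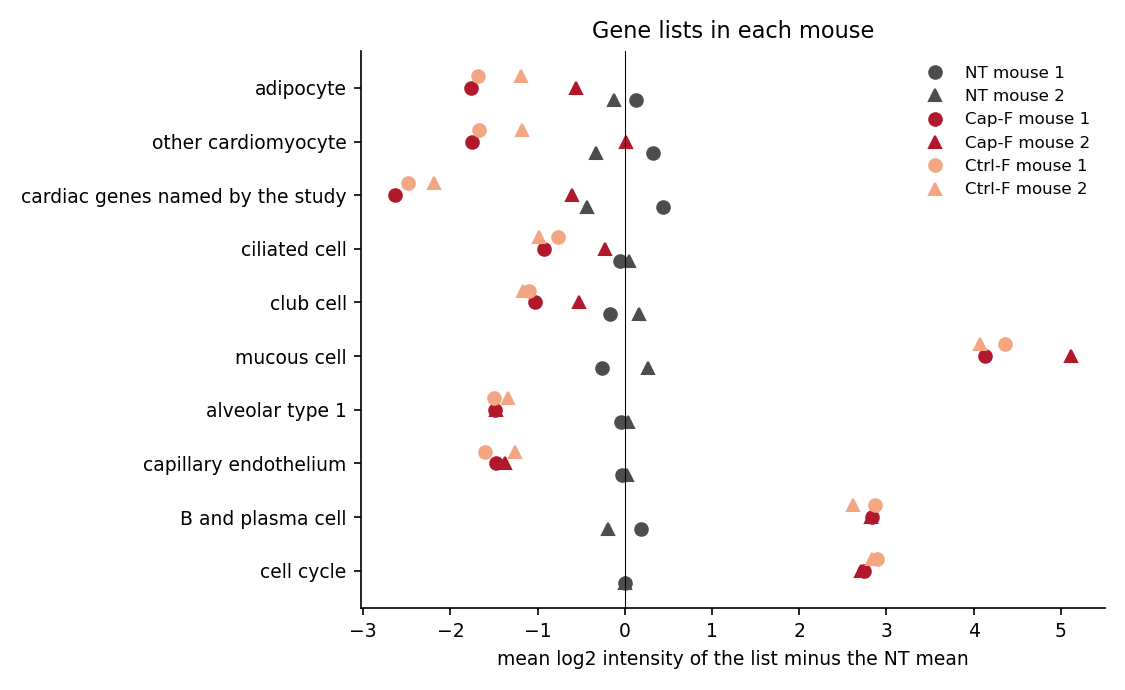
Mean log2 intensity of 10 gene groups in each mouse minus the mean of the NT mice (horizontal axis), with circles for mouse 1 and triangles for mouse 2 of NT, Cap-F and Ctrl-F. The cardiac genes named by the study lie lowest in Cap-F mouse 1, whose mean is 7.18 against 9.21 in Cap-F mouse 2, and mucous cell genes lie highest in Cap-F mouse 2, whose mean is 12.48.

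Scgb3a1, Reg3g, Clca1 and Mcpt8, given above, were among the 10 named genes with the NT mice farthest apart. Kifc1, a mitotic kinesin, measured 5.09 and 1.79 in NT, with 1 of 2 arrays well above background, and 5.08 and 5.36 in Cap-F, so NT mouse 2 alone was low. Apol7c, an apolipoprotein L, measured 3.62 and 6.85 in NT, with 1 of 2 arrays well above background, and 9.70 and 8.36 in Cap-F. Its call at 3.80 ended without NT mouse 1 or Cap-F mouse 1, with no filter and with only the 2 groups compared. Gp2, a glycoprotein of secretory epithelium and among the 10 named genes with the Cap-F mice farthest apart, measured 3.37 and 5.61 in NT and 6.23 and 9.87 in Cap-F and was not called.

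The increased genes Gm15056, AY761185 and Speer2 are of families with near-identical copies, so the probe may read more than 1 gene. Gm15056 measured 5.32 and 4.87 in NT and 14.39 and 14.22 in Cap-F. Speer2 was at least 67.5-fold higher, and AY761185 was at least 54.0-fold higher. Duoxa1, the maturation factor of the dual oxidase that makes hydrogen peroxide, was below background in NT at 1.70 and 1.71 and measured 11.44 and 10.72 in Cap-F, at least 176-fold higher. Thbs4, a thrombospondin, was at least 51.8-fold higher. H2-Q1, of the class I family with near-identical copies, was at least 5.39-fold lower, and it was not above background in Cap-F.

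Ctrl-F mice received the same allergen on standard feed. In Ctrl-F against NT, 1872 named genes were higher (11.3%) and 1992 were lower (12%). That comparison shares the NT arrays with Cap-F against NT, so the values are only set side by side. The median log2 fold change of the mucous cell genes was 3.88 in Cap-F and 3.47 in Ctrl-F, that of the CC chemokines 3.27 and 3.15, and that of the cell cycle genes 2.98 and 3.16. For alveolar type 1 genes the medians were -1.54 and -1.52, and for the cardiac genes named by the study -1.68 and -2.64. The direct test of Cap-F against Ctrl-F in limma called 1 of 28992 (0.00345%), and 0 genes of the groups described here. With an unadjusted p under 0.05 and a change above 2-fold 284 were counted, and the local-pooled-error test called 138. The limma count was 0 with only the 2 groups compared, 6 without Ctrl-F mouse 1 and 2 without Ctrl-F mouse 2 or either ODNcap-F mouse. The 1 called transcript was AK048705, which has no gene name and was singled out after its values were seen. It measured 1.88 and 1.88 in NT, 4.59 and 4.54 in Cap-F and 1.89 and 1.88 in Ctrl-F, so it was above background in the Cap-F mice alone of these 3 groups, at least 1.92-fold above NT and at least 1.46-fold above Ctrl-F, the latter under the 2-fold of a call. With 2 mice a group, a difference that missed the threshold is not shown to be absent.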

How the data were processed

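RNA from the lungs of 8 mice was measured on 1-colour Agilent arrays, 2 from each of the 4 groups. The authors deposited scanner intensity values from Agilent Feature Extraction 11.0, with a background-subtracted signal for each of 59305 spots per array. The authors also deposited a table of quantile-normalized log2 values for 32312 probes, used as an alternative. Well above background is the scanner software's own call. On an array this call held for 61.3% to 65% of probes. Saturated spots numbered 0 on each array, and precision is limited by the number of arrays.

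The processed signal was taken as log2, 792 spot values with a quality mark were left out, spots of a probe were averaged, and the 8 arrays were quantile normalized. Of 56605 probes, 37116 were kept because the call held on both arrays of 1 group or more. The brightest probe stood for each gene or unnamed transcript, which gave 28992. A linear model with 4 groups and 4 residual degrees of freedom was fitted in R 4.3.3 with limma 3.58.1, statmod 1.5.0 and data.table (1.17.8), with Benjamini-Hochberg adjustment over all kept probes. The fit was tested on simulated data.

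Genes named were, by rule, the 15 largest called changes in each direction, up to 4 called genes each way in each of 42 lists (the 2 brightest where fewer than 2 were called), the cell type markers, the 10 genes with the largest difference within Cap-F and within NT, and genes the study named. The samples and lists were chosen with earlier results of these data known. The lists covered mucous, club, ciliated, basal, alveolar, endothelial, muscle, heart, fat, cartilage, red blood and immune cells, and chemokines, cytokines and the metabolic, stress and clock pathways given in the report.

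Alternatives were scaling to the 75th percentile, normexp background correction with an offset of 50, the deposited values, no filter, a filter on all 8 arrays, a replicate block, a fit of only the 2 groups, an intensity trend, leaving out each array, averaging all probes of a gene, a local-pooled-error test rebuilt from its definition, unadjusted p values and no limit on fold. A group left with 1 array was taken to have the spread of the remaining groups. Promoter sequences came from RefSeq at GRCm38.p6, and gene names from the reference table by accession.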

Additional observations from a re-analysis of the deposited data

Results flagged for a closer look

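The unnamed transcript AK048705 was the 1 result of the direct test of Cap-F against Ctrl-F, which compares the 2 feeds under the same allergen. Its log2 fold change was 2.68 ± 0.06 (SE, limma adjusted p = 0.000354, higher in 2 of 2 Cap-F mice). The probe was not well above background on any NT or Ctrl-F array and was well above it on both Cap-F arrays, so the fitted change is not a bound, and the SE and the p rest on Ctrl-F values below background. With only the 2 groups compared it was not called. Against the lowest signal well above background on the Ctrl-F arrays it was at least 1.46-fold higher, which is below the 2-fold limit of a call.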

How the results depend on the processing

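In Cap-F against NT, 5685 called genes (2823 higher, 2862 lower) became 3044 (1699 higher, 1345 lower) with normexp background correction, of which 3025 were shared, and 16395 (6994 higher, 9401 lower) with no limit on the fold. The cause of the first was not tested, and the second follows from the wider rule. Leaving out 1 array gave 5280 to 5808 calls, 2723 to 2845 higher and 2555 to 2963 lower. A replicate block gave 5689 calls, 5635 of them shared. The remaining settings stayed within 1.5 times the 3 counts.

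The 1 call of Cap-F against Ctrl-F became 0 with the deposited values, with the filter on all 8 arrays and with only the 2 groups compared, 8 with no filter, 17 with an intensity trend, 138 with the local-pooled-error test and 284 at unadjusted p with the fold. It ranged from 1 to 6 when 1 array was left out. The transcript called was well above background on 2 of 4 arrays of these groups, so the first 2 settings did not test it, and the cause of the others was not tested.

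Probes more than 2-fold apart numbered 408 in NT and 713 in Cap-F, and became 23 and 95 with normexp, 87 and 155 with the deposited values, 104 and 146 with the filter on all 8 arrays and 2050 and 2764 with no filter. The filters changed which probes were counted. The cause with normexp was not tested.

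Of 213 genes named and tested, 173 were called, and 134 of these kept direction and call in every alternative that tested them. The deposited values and the filter on all 8 arrays tested 162 of the 213, and 114 called genes were tested and kept in all 20. Normexp ended 27 calls, leaving out NT mouse 1 ended 16, and leaving out Cap-F mouse 1 ended 14. With all probes averaged, Cxcl12 changed from -1.06 to 0.35 and Retn from 1.02 to -0.78. Without NT mouse 1, Mfsd12 changed from 0.15 to -1.18. The cause was not tested. Of the 42 lists, 39 kept the sign of their median in all 20 alternatives, and the exceptions were the neutrophil, interferon-stimulated and skeletal muscle lists. Dim probes limit the comparison, since folds near background are bounds.

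Further list medians moved by more than 1.5 times. Normexp gave 0.62 for dendritic cell genes, 0.44 for eicosanoid genes, 0.15 for the Toll-like receptor list and 0.22 for the IL-22 and Reg3g axis. It also left 3 collagen and matrix genes higher. The deposited values and the filter on all 8 arrays, over fewer genes, gave 0.07 and 0.19 for mast cells and -0.28 and -0.31 for adipocytes. They gave 0.19 and 0.18 for the Toll-like receptor list and 0.30 and 0.29 for skeletal muscle. No filter gave -0.60 for adipocytes, 0.79 for cartilage, -0.44 for skeletal muscle and -0.83 for other cardiomyocyte genes. Scaling to the 75th percentile gave -0.17 for alveolar type 2 cells and 0.23 for the respiratory chain. The local-pooled-error test called 5 adipocyte genes lower. The cause was not tested.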
